A study of Homo sapiens with 9 samples.

Results

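Genes that mark astrocytes or neural stem cells were described across 9 RNA-seq libraries of LN229, an established human glioblastoma cell line. The genes were listed by symbol: GFAP, S100B, AQP4, SLC1A2, SLC1A3, GLUL, KCNJ10, NES, SOX2 and OLIG2. Of the 10, 9 had a row among the 23727 genes of the raw count table, matched by Ensembl identifier, and AQP4 is not analysed here. The cells of all 9 libraries grew in a medium of 17 mM glucose and 2 mM glutamine that held 10% serum. Of these, 3 untreated libraries (0 h) received no formate, 3 were harvested after 8 h of 500 µM sodium formate and 3 after 24 h of the same dose. Formate is a one-carbon unit donor that cells release and take up. The untreated libraries carry the time label 0 h, and no untreated library at 8 h or 24 h was analysed here, so formate and time in culture cannot be told apart. The labels do not say whether replicates came from separate cultures, so the p-values measure the spread between these libraries, which may be technical. One label field spells the cell line LN299.

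Astrocytes take up synaptic glutamate through the transporters encoded by SLC1A2 (EAAT2) and SLC1A3 (EAAT1), convert it to glutamine with glutamine synthetase (GLUL), and clear potassium through the inward rectifier Kir4.1 (KCNJ10). The intermediate filament protein GFAP and the calcium-binding protein S100B are their classical histological markers. Neural stem and progenitor cells carry the intermediate filament nestin (NES) and the transcription factors SOX2 and, in the oligodendrocyte lineage, OLIG2, and many glioblastoma cells express genes of both sets.

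By the test described below, the genes fell into 3 kinds, and which genes passed depended on the fit and on single libraries. Transcripts of KCNJ10, SLC1A3 and S100B rose at 24 h by 3.37-fold, 2.99-fold and 2.61-fold against the untreated libraries. NES, SOX2, GLUL and OLIG2 were present in every library, with fitted changes of at most 1.44-fold that did not pass the same test. GFAP and SLC1A2 did not reach the level set for the test. At 8 h no marker passed the test.

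To show the sequence context of the genes that did and did not move, the RefSeq promoter windows (GRCh38.p14, 300 bases spanning the annotated start, 5′ to 3′ on the gene's strand) of KCNJ10, SLC1A3 and NES follow. KCNJ10 lies at chr1:160070111-160070410 on the minus strand, SLC1A3 at chr5:36606356-36606655 on the plus strand (of its 3 windows, the one nearest the gene's start in GENCODE) and NES at chr1:156677358-156677657 on the minus strand. Capitals mark the SOX core words ACAAAG and ACAATG and the nuclear factor I (NFI) word TTGGC, searched on both strands.
KCNJ10: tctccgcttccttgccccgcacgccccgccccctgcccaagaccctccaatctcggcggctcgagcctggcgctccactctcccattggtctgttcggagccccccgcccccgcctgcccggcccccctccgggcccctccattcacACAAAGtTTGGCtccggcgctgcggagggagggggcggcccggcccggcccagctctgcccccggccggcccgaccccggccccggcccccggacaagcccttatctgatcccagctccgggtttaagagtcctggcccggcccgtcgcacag
SLC1A3: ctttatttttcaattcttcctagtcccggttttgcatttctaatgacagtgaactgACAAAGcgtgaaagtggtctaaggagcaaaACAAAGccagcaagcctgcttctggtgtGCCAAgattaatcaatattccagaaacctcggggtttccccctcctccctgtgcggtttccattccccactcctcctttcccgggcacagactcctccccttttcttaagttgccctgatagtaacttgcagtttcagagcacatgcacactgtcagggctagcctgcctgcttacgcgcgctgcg
NES: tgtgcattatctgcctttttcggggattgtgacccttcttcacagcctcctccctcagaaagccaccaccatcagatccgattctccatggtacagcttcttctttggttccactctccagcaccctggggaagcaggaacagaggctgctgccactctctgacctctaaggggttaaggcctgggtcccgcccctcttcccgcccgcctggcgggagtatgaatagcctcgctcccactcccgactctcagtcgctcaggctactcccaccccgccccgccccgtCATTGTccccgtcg
The KCNJ10 window held 1 SOX core word and, 1 base after it, 1 NFI word, the SLC1A3 window held 2 SOX core words and 1 NFI word, and the NES window held 1 SOX core word and no NFI word. Among 35116 promoter windows of the same length, 24.47% held a SOX core word and 45.62% an NFI word. The KCNJ10 window was 74.7% G or C with 29 CpG dinucleotides, that of SLC1A3 50% with 9 and that of NES 60.3% with 14, against medians of 58.7% and 14 over all windows. The GC box GGGCGG was found 3 times in the KCNJ10 window, 4 times in that of NES and not in that of SLC1A3, and 44.95% of all windows held it. These are matches of letters and not binding sites. RefSeq windows were matched for 5 genes, NES, KCNJ10, GLUL, SOX2 and SLC1A3. Both GLUL windows held 1 NFI word and 0 SOX core words, so an NFI word was also present at a gene that did not pass the test. The SOX2 window held 1 SOX core word and 0 NFI words, and the other SLC1A3 windows held 0 of either. Whether these words differ between genes that did and did not move was not tested.

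Library totals ran from 22222298 to 25848242 counts, and 15273 genes passed the filter on low counts. Values are given as CPM, that is, counts relative to each library total, with the totals adjusted by the trimmed mean of M-values (TMM). A count of 3, used as the floor, corresponds to between 0.115 and 0.141 CPM. Replicate 1 stood apart in each group, and most among the untreated libraries. Counts of untreated replicate 1 differed from those of untreated replicates 2 and 3 by a chi-square per degree of freedom of 57.6 and 60.5. Between untreated replicates 2 and 3 it was 8.62. The same values were 22.6 and 23.7 against 10.9 at 8 h, and 13.9 and 24.5 against 8.86 at 24 h. These values used library totals without the TMM adjustment. Untreated replicate 1 had the lowest TMM factor (0.920, against 1.01 and 1.02 for untreated replicates 2 and 3), so a difference in scaling is part of them. Results at 24 h are also given without untreated replicate 1. Calls were made at an adjusted p under 0.05 (quasi-likelihood test of edgeR, p-values adjusted by Benjamini-Hochberg over all 15273 genes). A second fit added a term for the replicate number (the replicate block), because same-numbered libraries of the untreated and 24 h groups deviated together. For the comparisons with 0 h, its value is given where it changes a call.

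Expression spanned a wide range, which was compared between genes as CPM per kb of exon. NES had 171 CPM per kb as the mean of 9 libraries, above 98.9% of the tested genes, followed by S100B with 136, SOX2 with 31.4, GLUL with 7.41, OLIG2 with 2.84, KCNJ10 with 1.85 and SLC1A3 with 0.358. GFAP and SLC1A2 came last, with 0.0206 and 0.0040 CPM per kb. The order of NES and S100B depended on the group: S100B lay between 40.9 and 122 CPM per kb in the 6 libraries of 0 h and 8 h, below every NES value (160 to 177), and between 199 and 273 at 24 h, above the NES values of 162 to 182. KCNJ10 lay below OLIG2 at 0 h (0.502 to 1.72 against 1.97 to 2.91 CPM per kb), and the ranges overlapped at 24 h (2.25 to 4.45 against 3.05 to 3.87). When the longest transcript was used as length, S100B (203) came before NES (171) in the mean of 9 libraries. At 8 h the lowest S100B value and the highest SOX2 value were both 40.9, and the other neighbours in this order did not overlap within a group.

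**Figure D1:**
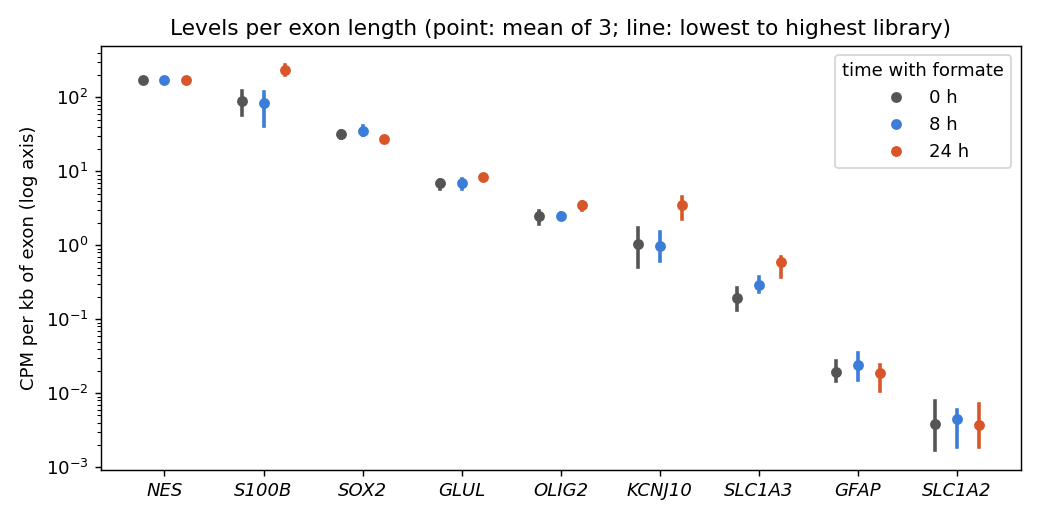
Level of each of the 9 marker genes in CPM per kb of exon (log axis), with a point at the mean of each group of 3 and a line from its lowest to its highest library. NES and S100B sit at the top with means over 9 libraries of 171 and 136, and GFAP and SLC1A2 lie at 0.0206 and 0.0040, more than an order of magnitude below SLC1A3.

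GFAP, a classical filament marker of astrocytes (ENSG00000131095, chr17:44903161-44916937, minus strand in GENCODE 29, GRCh38), had 7, 5 and 4 counts in the untreated libraries, 4, 6 and 10 at 8 h and 6, 3 and 7 at 24 h. The sums of 16, 20 and 16 counts did not separate the groups. Of its exon bases, 18.4% overlap exons of CCDC103 and FAM187A on the opposite strand, and the strand setting of the counting is not given in the sources used here, so part of these few counts could belong to those genes. SLC1A2, the main glutamate transporter of forebrain astrocytes (ENSG00000110436, chr11:35251205-35420063, minus strand), had 1, 1 and 4 counts at 0 h, 3, 3 and 1 at 8 h and 1, 1 and 4 at 24 h. Its sums were 6, 7 and 6 counts, and in 5 of 9 libraries it had 1 count. Both genes failed the filter on low counts. In edgeR without the filter, GFAP had a log2 fold change of -0.04 at 24 h against 0 h (unadjusted p = 0.947) and 0.34 at 8 h (0.519), and SLC1A2 had -0.03 (0.969) and 0.24 (0.782). SLC1A2 is at or near the floor of 3 counts, and GFAP lies at 0.129 to 0.425 CPM. By these counts GFAP RNA was close to absent in this line.

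At 24 h, 3 of the 7 tested markers were called higher and 0 lower, where 4.25% of all tested genes were called and 2.47% were called higher and 1.77% lower. At an unadjusted p under 0.05 it was 4 of 7, against 26.4% of all tested genes. With the replicate block 5 of 7 were called higher, and 0 lower, against 24.1% of all tested genes called in that fit, 12.6% higher and 11.6% lower. The median log2 fold change of the 7 was 0.52, against 0.01 over all tested genes. The untreated and 24 h libraries did not overlap for 6 of the 7, 5 higher and 1 lower, which was the case for 15.9% and 14.4% of all tested genes.

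**Figure D2:**
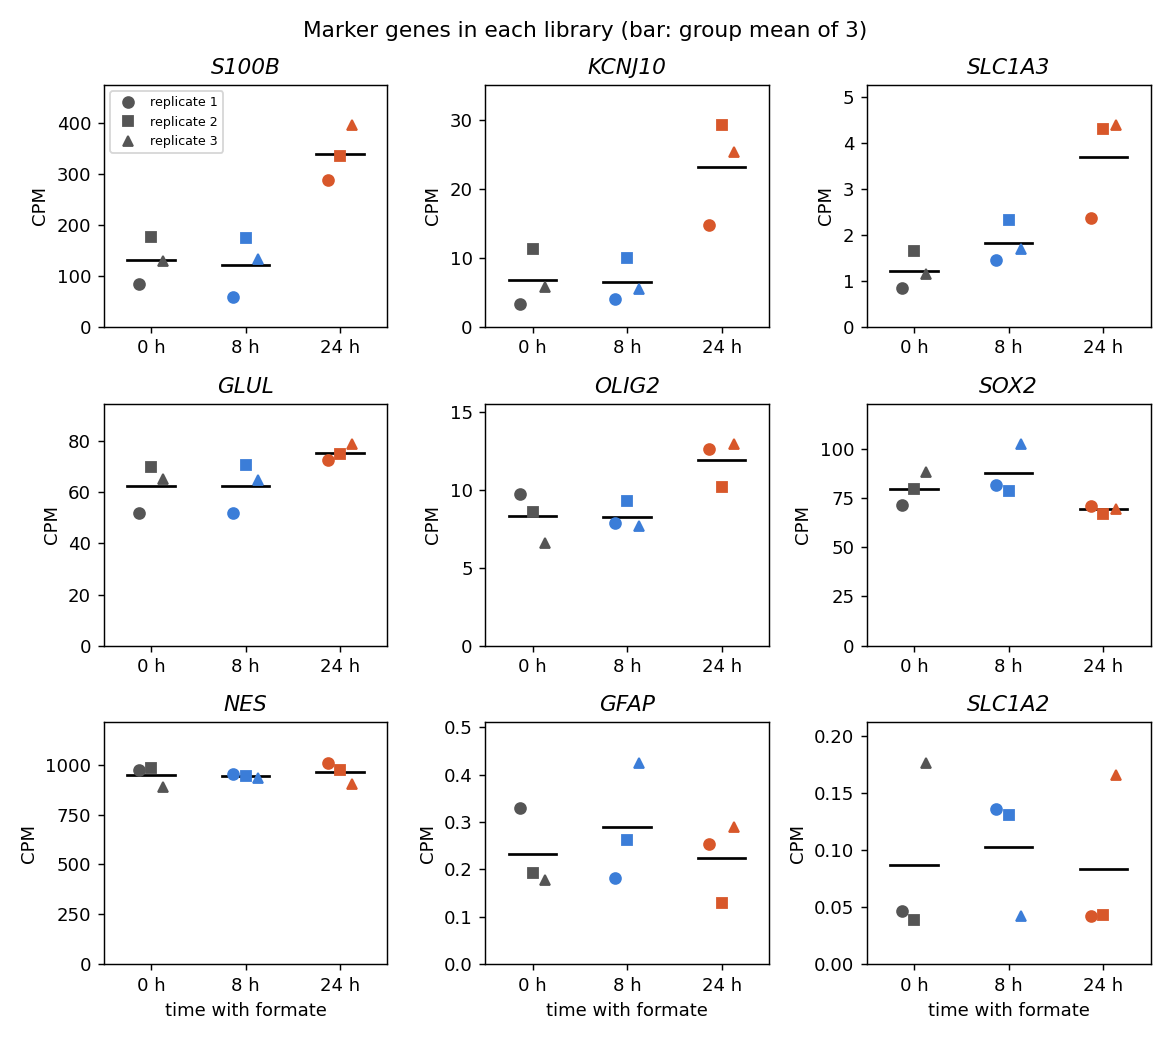
CPM of each of the 9 marker genes in every library at 0 h, 8 h and 24 h of 500 µM formate, with a symbol for each replicate number and a bar at the group mean. S100B, KCNJ10 and SLC1A3 are higher in all 3 libraries of 24 h than in any earlier library, whereas NES stays between 887 and 1011 CPM throughout.

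KCNJ10 encodes Kir4.1, the potassium channel of astrocyte processes (ENSG00000177807, chr1:159998651-160070483, minus strand). It measured 3.30, 11.3 and 5.79 CPM in untreated replicates 1 to 3, 3.99, 10.1 and 5.53 CPM at 8 h, and 14.8, 29.3 and 25.3 CPM at 24 h. Every 24 h library lay above every earlier one, and replicate 1 was the lowest and replicate 2 the highest in all 3 groups. The mean rose from 6.80 ± 4.10 to 23.1 ± 7.49 CPM (SD, n = 3 each), a log2 fold change of 1.75 (SE 0.42, edgeR adjusted p = 0.0421). Within replicate numbers the ratios of 24 h to 0 h were 4.49, 2.59 and 4.38. In bulk RNA, more cells expressing a gene and more RNA per cell cannot be told apart, here and for the genes that follow.

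SLC1A3, the glutamate and aspartate transporter also present in radial glia (ENSG00000079215, chr5:36606355-36688334, plus strand), was the least abundant of the tested markers. It measured 0.848, 1.65 and 1.15 CPM at 0 h, 1.45, 2.32 and 1.70 CPM at 8 h and 2.37, 4.31 and 4.39 CPM at 24 h, from 18 to 106 counts per library. The 24 h libraries were above all others, the closest being 24 h replicate 1 and 8 h replicate 2, and the 8 h libraries overlapped the untreated ones. The mean rose from 1.22 ± 0.407 to 3.69 ± 1.15 CPM (SD, n = 3 each), a log2 fold change of 1.58 (SE 0.32, edgeR adjusted p = 0.0277), with ratios of 2.79, 2.61 and 3.82 within replicate numbers. At 8 h it was higher in 3 of 3 same-numbered pairs, with a log2 fold change of 0.57 (SE 0.33) that did not pass the test (unadjusted p = 0.115). With the replicate block it was 0.58 (SE 0.22, edgeR unadjusted p = 0.0219, adjusted p = 0.9985). Its antisense gene SLC1A3-AS1 had 5 to 14 counts per library and a log2 fold change of 0.31 (SE 0.41, edgeR adjusted p = 0.648) at 24 h.

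S100B, the calcium-binding protein secreted by astrocytes and also made by oligodendrocyte progenitors (ENSG00000160307, chr21:46598962-46605208, minus strand), measured 84.4, 177 and 129 CPM at 0 h and 59.2, 174 and 133 CPM at 8 h. At 24 h it measured 288, 335 and 395 CPM. All 24 h libraries were higher than all others, and at 0 h and 8 h replicate 1 was again the lowest and replicate 2 the highest. The mean rose from 130 ± 46.2 to 339 ± 53.5 CPM (SD, n = 3 each), a log2 fold change of 1.38 (SE 0.34, edgeR adjusted p = 0.0460). The ratios within replicate numbers were 3.42, 1.89 and 3.06.

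The calls of these 3 genes rest on few libraries. Without the block and with 1 library left out at a time, SLC1A3 was called in 5, KCNJ10 in 4 and S100B in 3 of 9 fits, with adjusted p up to 0.143, 0.175 and 0.194. None of the 3 was called without untreated replicate 1 (log2 fold changes 1.37, 1.41 and 1.13), untreated replicate 3 (1.53, 1.64 and 1.37), 24 h replicate 2 (1.45, 1.54 and 1.38) or 24 h replicate 3 (1.43, 1.67 and 1.25). Without 8 h replicate 3 only SLC1A3 was called (adjusted p = 0.0461), and without 24 h replicate 1 SLC1A3 and KCNJ10 were (0.0199 and 0.0322). With the replicate block all 3 were called in 9 of 9 such fits. The share of all tested genes called in those 9 fits is not given here. With all libraries the block called 24.1% of all tested genes. It then gave log2 fold changes of 1.85 for KCNJ10 (edgeR adjusted p = 8.48e-05), 1.59 for SLC1A3 (0.000441) and 1.46 for S100B (0.000507).

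GLUL and OLIG2 were higher by smaller amounts. GLUL, the enzyme that makes glutamine from glutamate and ammonia (ENSG00000135821, chr1:182381704-182392206, minus strand), measured 52.0, 70.1 and 65.4 CPM at 0 h, 51.9, 70.9 and 65.0 CPM at 8 h and 72.8, 75.2 and 79.0 CPM at 24 h. The 24 h libraries were above the others by a small margin, and at 0 h and 8 h each replicate number was within 1 CPM of its partner. The log2 fold change at 24 h was 0.28 (SE 0.14, edgeR adjusted p = 0.217), and the fit with the replicate block called it (0.29, SE 0.09, adjusted p = 0.0425). That call was kept in 1 of 9 fits with the block and 1 library left out. Without untreated replicate 1 the value was 0.14 (edgeR adjusted p = 0.557), and with the block 0.22 (0.0776). GLUL has annotated pseudogenes, and reads could be split among near-identical copies.

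OLIG2, the basic helix-loop-helix factor of oligodendrocyte progenitors and of most diffuse gliomas (ENSG00000205927, chr21:33025845-33029196, plus strand), measured 9.75, 8.58 and 6.59 CPM at 0 h. It measured 7.85, 9.31 and 7.69 CPM at 8 h and 12.6, 10.2 and 12.96 CPM at 24 h. The 24 h libraries did not overlap the others, and replicate 2 at 24 h came closest. The log2 fold change at 24 h was 0.52 (SE 0.17, edgeR adjusted p = 0.0922), and with the block it was called at 0.53 (SE 0.16, adjusted p = 0.0303). With 1 library left out, that call was made in 4 of 9 fits with the block. Without untreated replicate 1 the value was 0.63 (edgeR adjusted p = 0.0752; with the block 0.0110).

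SOX2, which maintains neural stem cell identity (ENSG00000181449, chr3:181711924-181714436, plus strand), was the single tested marker whose fitted value at 24 h was lower than at 0 h. It measured 71.7, 79.6 and 88.5 CPM at 0 h, 81.8, 78.7 and 103 CPM at 8 h and 71.3, 67.2 and 69.8 CPM at 24 h. The 24 h libraries lay below all others, with untreated replicate 1 the closest. The log2 fold change at 24 h was -0.20 (SE 0.12, edgeR adjusted p = 0.288), and it did not pass with the block either (adjusted p = 0.144). Without untreated replicate 1 it was -0.29 (edgeR adjusted p = 0.186), and with the block SOX2 was then called lower (-0.28, 0.0266). The long noncoding gene SOX2-OT, whose transcript unit contains SOX2, measured 10.2, 13.4 and 14.015 CPM at 0 h, 10.3, 11.8 and 14.5 CPM at 8 h and 15.5, 16.4 and 18.5 CPM at 24 h. Its 24 h libraries lay above all others, with a log2 fold change of 0.42 (SE 0.16, edgeR adjusted p = 0.134) that was called with the replicate block (0.43, adjusted p = 0.0128).

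NES, the filament protein of neural progenitors (ENSG00000132688, chr1:156668763-156677397, minus strand), measured 974, 983 and 887 CPM at 0 h, 952, 945 and 934 CPM at 8 h and 1011, 974 and 903 CPM at 24 h. The groups overlapped, and replicate 3 was the lowest of each. Its log2 fold change at 24 h was 0.02 (SE 0.10, edgeR adjusted p = 0.908), with the smallest standard error of the 7, and without untreated replicate 1 it was again 0.02 (0.931).

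**Figure D3:**
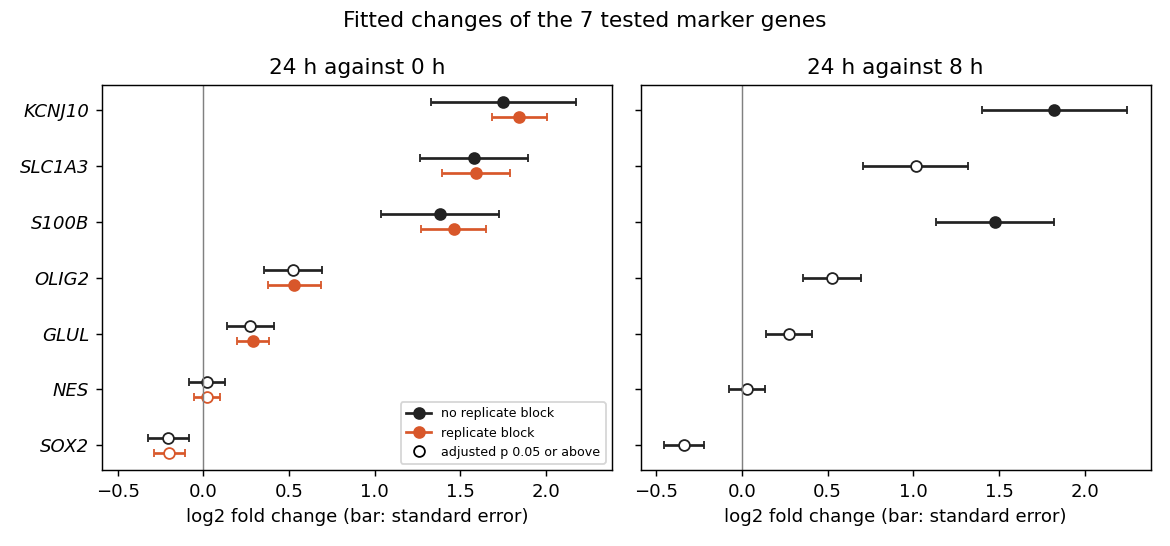
Fitted log2 fold changes of the 7 tested markers with standard errors, for 24 h against 0 h (left; black without and orange with the replicate block) and 24 h against 8 h (right; without the block). KCNJ10, SLC1A3 and S100B lie at 1.75, 1.58 and 1.38 on the left, and NES and SOX2 at 0.02 and -0.20; filled symbols have an adjusted p under 0.05.

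Between 0 h and 8 h, 0 of 7 markers were called, and 0% of all tested genes were. Without the block none of the 7 had an unadjusted p under 0.05 in edgeR, against 0.517% of all tested genes. With the block 1 did, SLC1A3, against 1.01% of all tested genes, and again 0 were called, as in DESeq2. The log2 fold changes were -0.09 (SE 0.34) for S100B, -0.07 (SE 0.44) for KCNJ10 and 0.13 (SE 0.12) for SOX2, and those of GLUL, OLIG2 and NES lay between -0.01 and 0.00. The standard errors of S100B and KCNJ10 were the largest of the 7 and limit what could be detected at 8 h.

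Between 8 h and 24 h, 2 of 7 markers were called, both higher, where 4.56% of all tested genes were called, 2.84% higher and 1.72% lower. The 8 h and 24 h libraries did not overlap for 5 markers that were higher and 1 that was lower, against 18.2% and 16.2% of all tested genes. KCNJ10 rose by a log2 fold change of 1.82 (SE 0.43, edgeR adjusted p = 0.0384) and S100B by 1.48 (SE 0.34, adjusted p = 0.0382). SLC1A3 had 1.01 (SE 0.30, adjusted p = 0.0797), OLIG2 0.53 (SE 0.17, 0.0940), GLUL 0.27 (SE 0.14, 0.256), NES 0.03 (SE 0.10, 0.892) and SOX2 -0.34 (SE 0.12, 0.119). Since both comparisons use the 24 h libraries, they do not give separate evidence. With 1 library left out and no block, KCNJ10 was called in 5 and S100B in 4 of 9 fits. Neither was called without 8 h replicate 1 (1.55 and 1.13), 8 h replicate 3 (1.71 and 1.53), 24 h replicate 2 (1.61 and 1.47) or 24 h replicate 3 (1.74 and 1.34), and S100B was also not called without untreated replicate 3 (adjusted p = 0.0511).

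The genes whose log2 CPM over the 9 libraries was most like that of the 3 called markers were ranked among 10917 tested genes of at least 5 CPM. For S100B they were GSN, the actin-severing protein gelsolin (Pearson r = 0.998), CCNG1 (0.994), NCALD (0.993) and MMP11 (0.993). For KCNJ10 they were MRAS (0.992), NRCAM, a neuronal and glial adhesion molecule (0.991), ITGA9 (0.989) and TBC1D4 (0.988). For SLC1A3 they were CITED2 (0.982), TMTC4 (0.978), SELENON (0.962) and PYGO1 (0.959). Each r is over 9 libraries that share 3 groups, and in all 12 genes the mean at 24 h was above that at 0 h, so the difference between groups enters every value.

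Genes of the oligodendrocyte lineage were called in 1 direction. Of 17 with a row, 14 were tested, all 14 had a fitted log2 fold change above 0 at 24 h (50.9% of all tested genes did), 4 were called higher and 0 lower, and with the block 10 were higher and 0 lower. The shares over all tested genes, for this and the following lists, were 2.47% higher and 1.77% lower, and with the block 12.6% and 11.6%. The median was 0.85, against 0.01 over all tested genes. SOX8 rose from 23.8 to 74.3 CPM (log2 fold change 1.64, edgeR adjusted p = 0.0396) and MYRF, a regulator of myelin genes, from 6.70 to 16.1 CPM (1.26, 0.0306). SOX10, the most abundant of the list, was at 1006 and 1078 CPM (0.10, 0.552). PTPRZ1, also called, which was named after its value was seen, rose from 152 to 293 CPM (0.95, 0.0314). Summed over the list, the untreated libraries held 1889 to 2229 CPM and the 24 h libraries 2652 to 3210.

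Other astrocyte genes had calls in both directions. Of 20 with a row, 14 were tested, 2 were called higher and 2 lower (6 and 3 with the block), and the median was 0.20. ID4 rose from 14.97 to 26.2 CPM (log2 fold change 0.80, edgeR adjusted p = 0.0289), and GJA1, the astrocytic gap junction protein connexin 43, fell from 57.1 to 34.1 CPM (-0.74, 0.0167). FGFR3 was at 10.6 and 20.5 CPM (0.94, 0.0756) and was called with the block (0.000608). NFIA and PLA2G7, named after their values were seen, were the other called genes, NFIA rising (1.29, 0.0244) and PLA2G7 falling (-1.06, 0.0350). NFIB, the most abundant, was at 111 and 101 CPM (adjusted p = 0.486). Their summed level did not separate the groups (259 to 271 CPM at 0 h, 252 to 269 at 24 h). ALDH1L1 had 2 counts in all 9 libraries together, and GJB6 had 0.

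Of 23 other neural stem and progenitor genes with a row, 19 were tested, 3 were called higher and 0 lower (7 and 2 with the block), and the median was 0.35. FABP7, the fatty acid-binding protein of radial glia, rose from 46.5 to 111 CPM (log2 fold change 1.25, edgeR adjusted p = 0.0167), and MSI2, an RNA-binding protein of stem cells, from 62.3 to 90.9 CPM (0.55, 0.0464). GLI3, named after its value was seen, was the other (0.52, 0.0469). SOX4 was at 24.4 and 42.4 CPM (0.80, 0.0601; with the block 0.000622), and ITGA6, the most abundant, at 476 and 513 CPM (0.660). Of 19 genes of reactive astrocytes and mesenchymal glioma, all tested, 0 were called higher and 3 lower (3 and 8 with the block), with a median of -0.36. FOSL2 fell from 44.0 to 25.2 CPM (log2 fold change -0.81, edgeR adjusted p = 0.0304) and RUNX1 from 159 to 86.6 CPM (-0.88, 0.0492). VIM, the filament protein vimentin, was at 4899 and 3551 CPM (-0.46, 0.133; with the block 0.00858).

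Relatives of the markers were counted in the same way, and VIM, S100A6, S100A10 and S100A11 stand both here and in the reactive list. Among other S100 genes 10 of 13 with a row were tested, 0 were called higher and 1 lower (1 and 3 with the block), and the median was -0.20. S100A2 fell from 9.83 to 3.40 CPM (log2 fold change -1.53, edgeR adjusted p = 0.0321), S100A16 was at 199 and 129 CPM (-0.62, 0.0538; with the block 0.00117), S100A11 at 248 and 163 CPM (-0.61, 0.0813; 0.00328) and S100A6 at 1300 and 1153 CPM (0.436). Among 11 tested of 17 intermediate filament and linker genes 0 were called in either direction without the block, with 5 at an unadjusted p under 0.05, and 1 higher and 4 lower with it. LMNA was at 1854 and 1315 CPM (-0.50, 0.0537; with the block 0.00266), KRT18 at 142 and 96.1 CPM (-0.57, 0.0601; 0.00333) and SYNM, which co-assembles with vimentin and nestin, at 335 and 462 CPM (0.46, 0.0900; 0.0049).

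Among glutamate and glutamine handling genes 14 of 17 were tested, 1 was called higher and 0 lower (2 and 2 with the block), and the median was 0.01. SLC1A1, the neuronal-type glutamate transporter EAAT3, rose from 26.2 to 41.6 CPM (log2 fold change 0.66, edgeR adjusted p = 0.0455). SLC38A5, a glutamine transporter, had -0.87 (0.0929; with the block 0.00192), GOT1 had -0.35 (0.0573; 0.0161), and SLC7A5, the most abundant, was at 1424 and 1411 CPM (0.968). SLC1A7 had 0 counts in all libraries. Of 7 other inward rectifier channel genes with a row, 3 were tested: KCNJ3 rose from 0.378 to 1.23 CPM (1.66, edgeR adjusted p = 0.0236), KCNJ2 was at 3.72 and 2.07 CPM (-0.84, 0.146; with the block 0.0171) and KCNJ14 at 5.85 and 4.28 CPM (-0.44, 0.283). Among genes of aquaporins and of the dystrophin complex, which anchors AQP4 and Kir4.1 at astrocyte endfeet, 13 of 15 were tested, 1 was called higher and 0 lower (4 and 0 with the block), with a median of 0.15. SNTB1, a syntrophin, rose from 17.3 to 36.6 CPM (1.08, 0.0202), DAG1, dystroglycan, was at 565 and 783 CPM (0.47, 0.108; with the block 0.0149) and AQP3 at 7.001 and 10.5 CPM (0.58, 0.126; 0.00645).

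**Figure D4:**
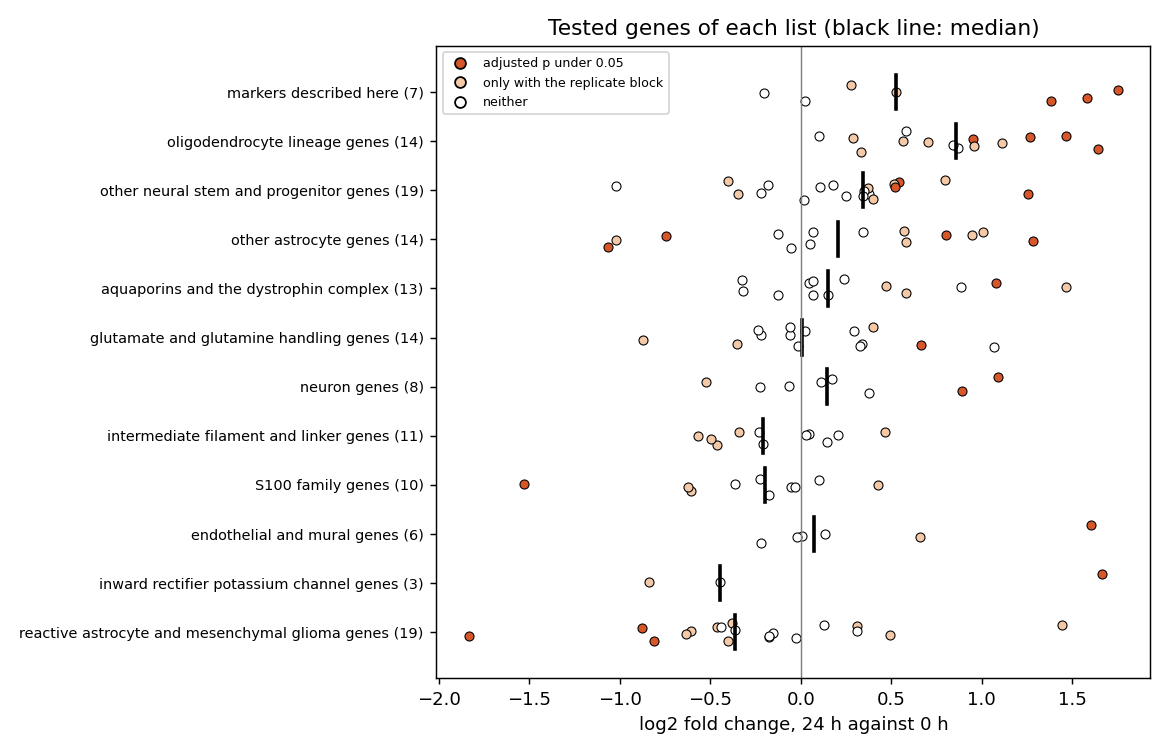
Fitted log2 fold changes at 24 h against 0 h of the tested genes of 12 lists (number tested in brackets), the black line marking each median; colour shows whether a gene was called. The oligodendrocyte lineage genes all lie above 0 with a median of 0.85, the other astrocyte genes lie on both sides, and the reactive and mesenchymal genes have a median of -0.36.

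The counts of called genes in these lists depended on single libraries. In the fits without the block, no list gene was called without 24 h replicate 2 or 24 h replicate 3, where no gene of the whole table passed. The counts that follow are also from fits without the block unless the block is named. Over all tested genes, 649 were called with all libraries. Dropping untreated replicate 1, 2 or 3 changed this total to 356, 574 or 418. It became 764, 445 or 284 when 8 h replicate 1, 2 or 3 was dropped, and 899 for 24 h replicate 1. The totals of such fits with the block are not given here. Whether a list differed from all tested genes in these fits was not tested. Without untreated replicate 1, 1 of 15 oligodendrocyte lineage genes was called (11 with the block), 1 progenitor gene was (7 higher and 2 lower with the block), and the other astrocyte genes had 1 call each way (5 and 4 with the block). The oligodendrocyte lineage list also had 1 call without 8 h replicate 3, 2 without untreated replicate 3, 6 without 8 h replicate 1 and 7 without 24 h replicate 1, and with the block 7 to 11 in the 9 fits, all higher. The progenitor list also had 1 call without untreated replicate 2 or any 1 of the 8 h libraries, and 2 without untreated replicate 3. In the other 7 of 9 fits without the block, the other astrocyte list had 1 to 4 higher and 1 or 2 lower calls, and the reactive list 2 or 3 lower calls. The glutamate list had 1 higher call without untreated replicate 2 or 8 h replicate 1, 1 lower call without 24 h replicate 1 and 0 calls in the other 6 fits, and the S100 list had 0 to 2 lower calls.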

How the data were processed

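The RNA of 9 LN229 samples was sequenced from TruSeq Stranded mRNA libraries, per the labels' protocols. The deposited table holds raw counts per Ensembl gene. The submitters' processing notes name STAR 2.7.4a, bcl2fastq 2.20.0.422 and GRCh38; the counter, annotation and strand setting are not given in the sources used here. Symbols came from a gene name table (23619 of 23727 rows matched), and coordinates and exon lengths from GENCODE 29 (23252 rows matched). In edgeR 4.0.16 (R 4.3.3, limma 3.58.1), genes were kept by filterByExpr, scaled by TMM, and tested by the quasi-likelihood test with 1 term per group over all 9 libraries, two-sided, with Benjamini-Hochberg adjustment. The fit without the block was checked on simulated counts for the recovery of known fold changes. The simulated libraries had less spread than these data and no replicate effect, so this check gives no error rate for these data. CPM per kb used the merged exon length.

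Same-numbered libraries deviated together from their group means between 0 h and 24 h (r = 0.367, 0.164 and 0.251) and between 0 h and 8 h (0.476, 0.432 and 0.414), which is the reason for the replicate block. With library totals not adjusted by TMM, replicates within a group differed by more than counting noise (chi-square per degree of freedom 8.62 to 60.5). Alternatives were the block, DESeq2 1.42.0, other size factors, no filter, fits of 2 groups and leaving out each library; leave-one-out fits with the block and of the lists were chosen after seeing the data. The members and lists were chosen with earlier results of these data known. Besides the markers, the text names from each list the most abundant gene and up to 3 genes with the smallest p among those called with or without the block, and for each called marker the 4 genes most alike over the libraries. Some genes that this rule selects are not reported here.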

Additional observations from a re-analysis of the deposited data

Results flagged for a closer look

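For S100B and KCNJ10 the effects at 8 h and at 24 h, both against the same untreated libraries, differed by the test of the difference itself, which is the comparison of 24 h with 8 h. That difference was a log2 fold change of 1.48 for S100B (edgeR adjusted p = 0.0382) and 1.82 for KCNJ10 (adjusted p = 0.0384), and all 3 libraries of 24 h were higher than all 3 of 8 h for both genes. The same was the case for 18.2% of all tested genes. With 1 library left out and no block, the difference was called in 4 of 9 fits for S100B and in 5 of 9 for KCNJ10. At 8 h the fitted values against the untreated libraries were -0.09 and -0.07.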

How the results depend on the processing

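With the replicate block, genes called at 24 h against 0 h went from 649 to 3687 and markers from 3 to 5; at 24 h against 8 h genes went from 696 to 3130 and markers from 2 to 6 (besides KCNJ10 and S100B, SLC1A3 at 1.01 with adjusted p = 0.00383, OLIG2 at 0.53 with 0.0347, GLUL at 0.29 with 0.0483 and SOX2 at -0.33 with 0.0297). For that second comparison the pairing was not established, since replicate 2 gave r = 0.0367; the block called 20.5% of all tested genes there, 11.8% higher and 8.71% lower. DESeq2 called 1594 and 1412 genes, and fits of only the 2 groups compared called 124 and 1787 genes and 1 and 4 markers. Leaving out 1 library at a time without the block gave 0 to 899 genes and 0 to 3 markers at 24 h against 0 h, and 0 to 2545 genes and 0 to 5 markers at 24 h against 8 h. With the block it gave 3 to 5 and 2 to 6 markers, and the counts over all tested genes in those fits are not given here. In the fits without the block at 24 h against 0 h, no gene passed without 24 h replicate 2 or 3, where 2549 and 2563 had an unadjusted p under 0.05. GFAP, with a mean of 5.78 counts, counts as expressed under a minimum mean of 3 counts, which leaves 1 gene not expressed in place of 2.

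Fitted values near 0 changed sign. OLIG2 at 8 h was 0.0038 with the block, 0.0029 with DESeq2 size factors, 0.0017 without the filter, 0.0046 in DESeq2 and 0.0054 with 2 groups, and NES at 8 h was 0.0016 in DESeq2 and 0.0011 with 2 groups. Ranges with 1 library left out are over the fits without and with the block together. Values at 8 h ran from -0.44 to 0.24 for S100B, -0.12 to 0.13 for GLUL, -0.52 to 0.52 for KCNJ10, -0.038 to 0.022 for NES and -0.14 to 0.12 for OLIG2. NES ran from -0.025 to 0.061 at 24 h against 0 h and from -0.0098 to 0.060 against 8 h. The cause of these differences was not tested. At this depth GFAP and SLC1A2 are too low to compare.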

Other observations

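Markers of other cell types were counted at 24 h against 0 h in the same fit. Of 15 neuron genes with a row, 8 were tested, 2 were called higher and 0 lower (2 and 1 with the replicate block), with a median log2 fold change of 0.14. SNAP25, a synaptic vesicle fusion protein, rose from 11.1 to 23.7 CPM (1.09, edgeR adjusted p = 0.0356) and MAP2, a dendritic microtubule protein and the most abundant of the list, from 56.7 to 105 CPM (0.89, 0.0396). GAP43, a growth cone protein, was at 13.3 and 9.26 CPM (-0.52, 0.0537; with the block 0.0147). The summed level of the neuron list was 130 to 169 CPM at 0 h and 197 to 223 CPM at 24 h. In the fits without the block, 1 of 9 was called without untreated replicate 1, where 356 of all tested genes were. Without untreated replicate 3, 8 h replicate 3, 24 h replicate 2 or 24 h replicate 3, 0 genes of the list were called, again without the block.

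Of 10 endothelial and mural genes with a row, 6 were tested and 1 was called higher (2 with the block), with a median of 0.07. That gene, VWF, rose from 0.424 to 1.28 CPM (log2 fold change 1.60, edgeR adjusted p = 0.0304). In the fits without the block, 0 genes of the list were called without untreated replicate 2, untreated replicate 3, 24 h replicate 2 or 24 h replicate 3. PDGFRB was at 5.52 and 8.73 CPM (0.66, 0.159; with the block 0.00713), and MCAM, the most abundant, at 322 and 277 CPM (0.478). Of 6 microglia and leukocyte genes with a row, none passed the filter on low counts. Their summed level was 0.577 to 0.862 CPM over the 9 libraries, with CD14 the highest at a mean of 0.361 CPM. All 9 libraries are of the LN229 line, and these lists name genes by the cell type they usually mark. Whether their changes and those of the astrocyte and stem cell markers share a cause was not tested.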
